A study of Mus musculus with 12 samples.

Results

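The class B G protein-coupled receptors are described here in 3 mouse cell lines under basal culture. A gene was taken as a member when its mouse symbol starts with Adgr or is Celsr followed by a number, or when it is a named receptor of the secretin family. The rule gave 46 genes, of which 15 are secretin receptors and 31 are adhesion receptors, the pseudogene Adgrd2-ps included. Of these, 37 genes had a matched target on the array (14 secretin and 23 adhesion receptors, each with 3 probes), among 25128 genes and unnamed targets in all. Gipr, Adgra1, Adgra3, Adgrd1, Adgrd2-ps, Adgrf4, Adgrf5, Adgrg4 and Adgrl2 had no matched target and were not analysed here.

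Total RNA came from 4 plates each of the lines AtT20, BV2 and N18, with 1 single-color NimbleGen array for each plate. AtT20 is a mouse pituitary corticotroph tumor line, BV2 is an immortalized mouse microglial line that the study kept in conditions favoring a resting state, and N18 is a mouse neuroblastoma line. All were grown in the same serum-containing medium, and no cells were treated. The 4 plates of a line were separately grown and extracted but come from 1 line each, so the p-values measure the spread between plates of a line and not between lines of the same origin.

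Secretin receptors bind peptide hormones through an extracellular domain and signal mainly through Gs proteins and cAMP. Adhesion receptors carry long extracellular regions that are cleaved next to the membrane, bind proteins on neighboring cells or in the matrix, and may be activated by a tethered peptide. Members of the first family control stress, growth and metabolic hormone axes, whereas members of the second mark myeloid cells, shape synapses or orient cells within a sheet.

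Levels are given in log2 units, for each plate, as the averaged signal of a gene's probes after the mean of 10 seminal proteins was taken off, which the study treated as zero expression. A gene was called above the threshold in a line when its level, averaged over the 4 plates, exceeded 2 SD of the seminal proteins, and this was 0.37 ± 0.11 for the plates labelled AtT20, 0.56 ± 0.15 for BV2 and 0.74 ± 0.10 for N18 (mean ± SD, n = 4). The arrays of the plates labelled AtT20 stood apart. Their interquartile range over probes was 0.38 to 0.78, against 1.28 to 1.73 in BV2 and 1.91 to 2.21 in N18, and the correlation between plates of the line was 0.896 to 0.959, against 0.976 or more in the other lines. Of 8 corticotroph markers, 2 (Pitx1 and Cpe) were above the threshold on these plates, while Pomc, Tbx19 and Pcsk1 had levels of 0.29 ± 0.26, 0.02 ± 0.06 and 0.14 ± 0.05. The mean level over the list ran from 0.20 to 0.44 between the plates. In N18, 5 of the 8 were above the threshold (Tbx19, Pitx1, Cpe, Scg2 and Chga), with plate means over the list from 1.53 to 1.78, and in BV2 2 were (Pomc and Tbx19), with plate means from 0.25 to 0.27. By these threshold calls the markers go against the label AtT20, so the plates are called by their label here. After quantile normalization, 6 of the 8 were called higher on these plates than in BV2 and 1 lower, beside 43.8% and 25% of all genes and targets. Against N18, 4 were called higher and 4 lower, beside 46.6% and 26.7%. Relative to the seminal proteins the median differences of the list were 0.21 and -0.90, beside -0.28 and -0.54 over all. In BV2, 7 of 9 microglia and macrophage markers were above the threshold, with plate means over the list from 3.06 to 3.62, and in N18 9 of 10 neuroblast markers were, with plate means from 2.88 to 3.23. Each slide carries 4 arrays, and which plates shared a slide is not given in the sources used here, so slide and line cannot be told apart.

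Of the 37 members, 16 were above the threshold in N18 (43.2%), 11 in BV2 (29.7%) and 9 on the plates labelled AtT20 (24.3%). Over all genes and targets the shares were 55.4%, 53.3% and 35%, so the members lay below the array as a whole in each line. Both families had members above it, since 3 secretin and 6 adhesion receptors were above the threshold on the plates labelled AtT20, 6 and 5 in BV2, and 7 and 9 in N18. In all 3 lines, Gcgr, Ghrhr, Adgrb1, Adgrb2 and Adgrl1 were above it, although in BV2 Adgrb2 and Adgrl1 passed through 1 of 3 probes. N18 alone passed for Crhr1, Adcyap1r1, Adgra2, Adgrg2, Celsr2 and Celsr3, and BV2 alone for Sctr, Vipr1 and Adgre1. In BV2, Sctr and Vipr1 passed in only 1 and 2 of the 7 alternative ways of calling that were tried. The plates labelled AtT20 alone passed for Adgrl3 and Adgrv1. BV2 and N18 shared Calcrl, Glp2r and Adgre5, and the plates labelled AtT20 and N18 shared Glp1r and Adgrb3. The other 16 members did not pass in any line. They are Calcr, Crhr2, Pth1r, Pth2r, Vipr2, Adgre4, Adgrf1, Adgrf2, Adgrf3, Adgrg1, Adgrg3, Adgrg5, Adgrg6, Adgrg7, Adgrl4 and Celsr1, and none of their plate values reached the threshold of the line except that of Pth2r on plate 4 labelled AtT20 (0.46) and that of Adgrf3 on the same plate (0.41). Passing or not in a line is a call against a threshold and does not by itself show a difference between lines, which was tested separately.

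**Figure D1:**
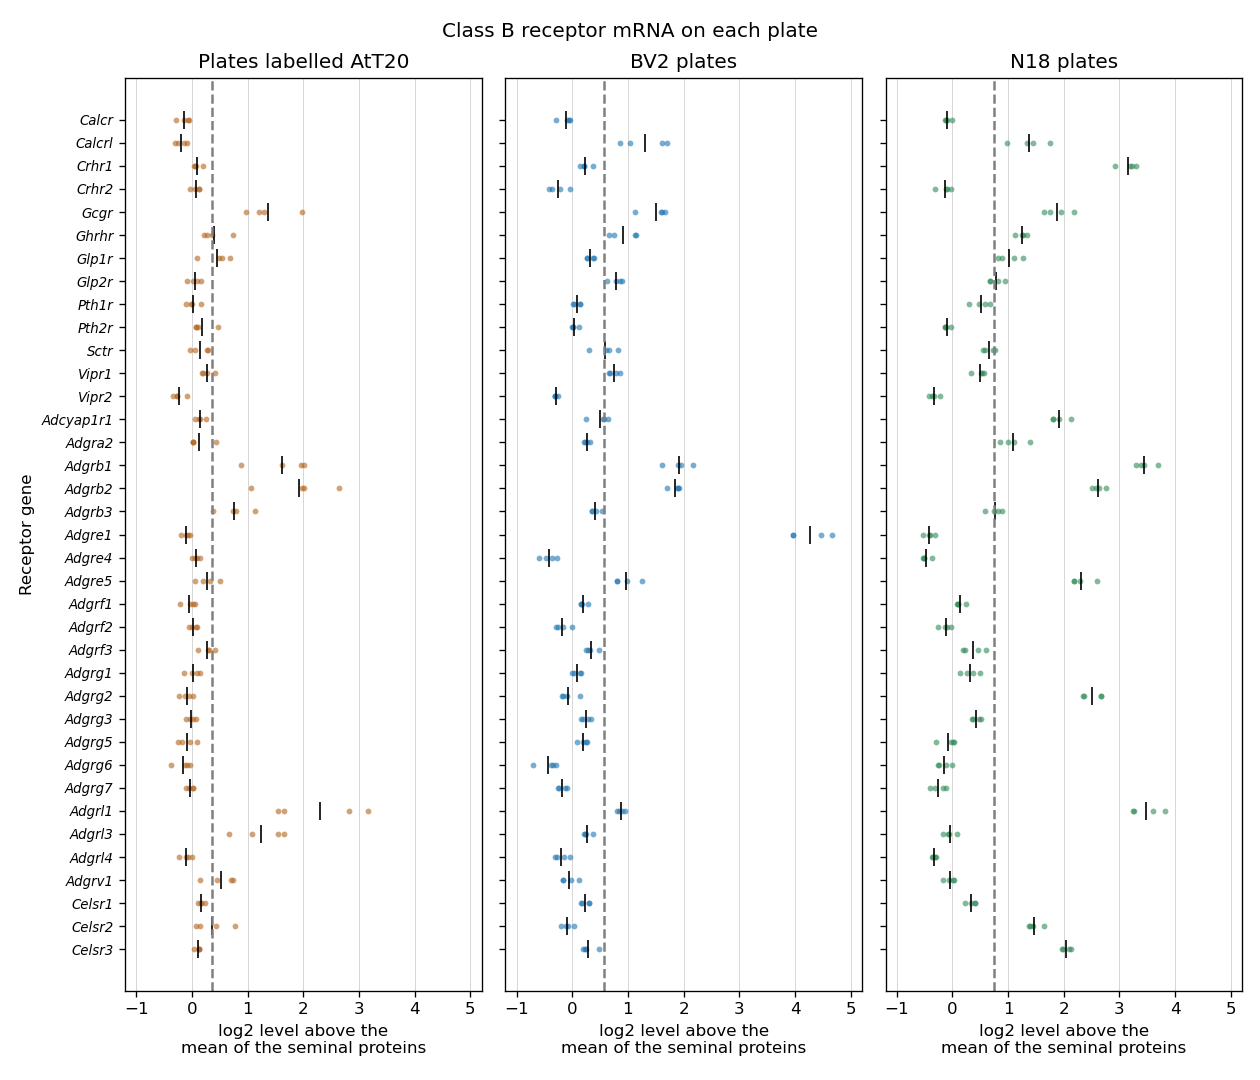
Level of each of the 37 members on each plate (horizontal axis, log2 units above the mean of the seminal proteins), with 1 panel for each line. Points are single plates, black ticks are means of 4 plates and dashed lines are the thresholds of the lines (0.37, 0.56 and 0.74). Adgre1 stands far to the right in BV2. In N18, Adgrl1, Adgrb1 and Crhr1 lie farthest right, and Crhr1, Adgrg2 and Celsr3 are above the threshold in that line alone.

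Among the receptors of stress and pituitary peptides, the clearest difference was that of Crhr1, the receptor through which corticotropin releasing factor acts on corticotrophs. Its levels were 3.22, 3.18, 2.92 and 3.29 on the 4 N18 plates. The BV2 plates had 0.37, 0.14, 0.22 and 0.21, and those labelled AtT20 had 0.20, 0.05, 0.07 and 0.03. Every N18 plate lay far above every plate of the other lines. After quantile normalization, Crhr1 was higher in N18 than in BV2 by 2.08 on the log2 scale (95% interval 1.88 to 2.28, adjusted p = 2.12e-10), and against the BV2 threshold this is at least 3.4-fold. It was lower on the plates labelled AtT20 than in N18 by 1.70 (adjusted p = 3.23e-07), with N18 at least 2.0-fold higher. All 3 probes showed both differences. Crhr2, which binds the urocortins, was below the threshold in every line, with plate values from -0.42 to 0.13. Ghrhr, the receptor for growth hormone releasing hormone, had levels of 1.34, 1.27, 1.12 and 1.25 in N18, 1.12, 0.66, 1.15 and 0.75 in BV2, with 0.37, 0.73, 0.21 and 0.28 on the plates labelled AtT20. The N18 and BV2 plates overlapped, and the difference of -0.06 did not pass the test (95% interval -0.26 to 0.13, adjusted p = 0.568).

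The receptor for PACAP, Adcyap1r1, was also higher in N18. Its N18 levels were 1.92, 2.14, 1.81 and 1.81, while the BV2 plates had 0.64, 0.24, 0.55 and 0.57 and the plates labelled AtT20 ran from 0.05 to 0.25. The N18 plates did not overlap with the others, and the difference from BV2 was 0.81 (95% interval 0.65 to 0.97, adjusted p = 3.9e-07). Vipr1, a receptor shared by VIP and PACAP, ran the other way. It had 0.80, 0.67, 0.86 and 0.68 in BV2, 0.51, 0.53, 0.34 and 0.57 in N18, with 0.17 to 0.41 on the plates labelled AtT20. The difference of -0.47 between N18 and BV2 passed after quantile normalization (adjusted p = 0.000107) but not without normalization (-0.29, adjusted p = 0.154), and the BV2 level came from 1 probe, at 1.62, with the others at -0.09 and -0.03. Vipr2 was below the threshold in every line, with means from -0.34 to -0.24.

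Among the glucagon-like receptors, Gcgr had levels of 1.94, 1.64, 1.75 and 2.19 in N18, 1.67, 1.13, 1.59 and 1.61 in BV2, with 1.20, 1.98, 0.98 and 1.30 on the plates labelled AtT20. The plates of the 3 lines overlapped on this scale, and the difference between N18 and BV2 did not pass the test (-0.16, 95% interval -0.41 to 0.09, adjusted p = 0.242). Of its 3 probes, probe 2 lay near or below the seminal proteins in every line, so the call rests on the other 2. Glp1r, the incretin receptor, had 1.10, 1.27, 0.90 and 0.83 in N18, 0.39, 0.27, 0.27 and 0.37 in BV2, and 0.09, 0.67, 0.49 and 0.55 on the plates labelled AtT20. N18 and BV2 did not overlap, and the difference was 0.31 (95% interval 0.18 to 0.44, adjusted p = 0.000659). Glp2r, the receptor of the intestinal growth factor GLP-2, had means of 0.79 in BV2 and 0.78 in N18 on the seminal protein scale, and its difference of -0.29 after quantile normalization was -0.01 on that scale (adjusted p = 0.918). Its N18 level passed the threshold in 1 of 7 alternative ways of calling that were tried.

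Calcrl, the receptor for CGRP and adrenomedullin when paired with a RAMP protein, had levels of 1.62, 0.85, 1.05 and 1.71 in BV2 and 1.45, 1.75, 0.98 and 1.34 in N18. These plates overlapped, and all plates labelled AtT20 were lower, at -0.10, -0.30, -0.15 and -0.25. The difference between N18 and BV2 took its sign from the scaling, at -0.31 after quantile normalization (adjusted p = 0.0297), 0.08 on the seminal protein scale (adjusted p = 0.747) and 0.05 without normalization (adjusted p = 0.873). The plates labelled AtT20 were lower than BV2 by 1.25 after quantile normalization (adjusted p = 5.74e-06), but the difference of -0.14 without normalization did not pass (adjusted p = 0.51). Sctr, the secretin receptor, had 0.66, 0.30, 0.83 and 0.61 in BV2, where 1 probe carried it, 0.77, 0.72, 0.55 and 0.58 in N18, with -0.03 to 0.29 on the plates labelled AtT20. Although Sctr was above the threshold in BV2 alone, its difference between N18 and BV2 did not pass (-0.17, 95% interval -0.35 to 0.02, adjusted p = 0.104). The calcitonin receptor Calcr and the parathyroid hormone receptors Pth1r and Pth2r stayed below the threshold, with means from -0.14 to 0.51.

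Among the adhesion receptors, the ADGRE group held the largest difference of any member. Adgre1 encodes a classical surface marker of mouse macrophages. It had levels of 4.66, 3.97, 3.96 and 4.47 in BV2, whereas the N18 plates had -0.52, -0.31, -0.40 and -0.43 and the plates labelled AtT20 had -0.03, -0.20, -0.10 and -0.08. No plate of the other lines came near those of BV2. Adgre1 was lower in N18 than in BV2 by 4.55 (95% interval -4.73 to -4.36, adjusted p = 9.58e-14), with BV2 at least 11.4-fold higher, and lower on the plates labelled AtT20 by 4.10 (adjusted p = 2.51e-11), with BV2 at least 5.8-fold higher. Csf1r, Ptprc and Spi1, other defining genes of myeloid cells, had levels of 4.70, 3.85 and 4.06 in BV2 and lay below the threshold in the other lines, whereas Aif1 and Cx3cr1 were below it in BV2 too. Of the 9 markers of the list, 2 were above the threshold in N18 (Tyrobp at 1.12 and Itgam at 0.80) and 1 on the plates labelled AtT20 (Fcgr3 at 0.50). Adgre5, which encodes the leukocyte antigen CD97, did not follow Adgre1. Its levels were 2.30, 2.59, 2.17 and 2.19 in N18 and 1.26, 0.80, 0.81 and 0.99 in BV2, and 0.06 to 0.50 on the plates labelled AtT20. It was higher in N18 than in BV2 by 0.68 (95% interval 0.51 to 0.84, adjusted p = 4.24e-06), without overlap. Adgre4 was below the threshold in every line, with means from -0.47 to 0.08.

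The latrophilins, adhesion receptors that bind teneurins and FLRT proteins across synapses, differed from each other in where they were found. Adgrl1 had levels of 3.61, 3.82, 3.26 and 3.25 in N18, while the plates labelled AtT20 had 3.16, 2.82, 1.65 and 1.55 and those of BV2 had 0.95, 0.81, 0.90 and 0.85. In BV2, probe 3 of Adgrl1 was at 1.63 and the others at 0.33 and 0.17, so that it did not pass there by the median of probes or where 2 probes had to pass. BV2 was lowest on every plate, and the plates labelled AtT20 fell into a higher and a lower pair. Adgrl1 was higher in N18 than in BV2 by 1.83 (95% interval 1.63 to 2.04, adjusted p = 1.24e-09) and on the plates labelled AtT20 than in BV2 by 2.45 (95% interval 2.06 to 2.84, adjusted p = 4.59e-08). Adgrl3 had 1.55, 1.65, 0.67 and 1.08 on the plates labelled AtT20, 0.23, 0.37, 0.21 and 0.25 in BV2, and -0.05, -0.07, 0.09 and -0.17 in N18. Only the plates labelled AtT20 were above their threshold, and they were higher by 1.86 than BV2 (adjusted p = 1.65e-08, at least 1.5-fold) and by 2.21 than N18 (adjusted p = 2.31e-09, at least 1.4-fold). This level was carried by probe 1, at 2.35, with the other probes at -0.04 and -0.16. Adgrl4, known from endothelial cells, was below the threshold in every line (means -0.33 to -0.10).

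The ADGRB group, brain receptors of which Adgrb1 takes part in the uptake of dying cells and Adgrb3 binds C1q-like proteins at synapses, was present in most plates. Adgrb1 had 3.29, 3.44, 3.38 and 3.68 in N18, 2.17, 1.62, 1.96 and 1.91 in BV2, and 1.97, 2.02, 0.89 and 1.62 on the plates labelled AtT20. The N18 plates did not overlap with the others on the seminal protein scale. After quantile normalization the difference from BV2 was 0.88 (95% interval 0.60 to 1.16, adjusted p = 4.76e-05). There the plates labelled AtT20 (mean 12.77) overlapped with those of N18 (mean 12.62). Adgrb2 had 2.75, 2.50, 2.58 and 2.63 in N18, 1.89, 1.70, 1.91 and 1.88 in BV2, and 1.98, 2.64, 1.07 and 2.01 on the plates labelled AtT20. Its BV2 level came from 1 probe, at 3.09, with the others at 0.34 and -0.10, and it too failed those alternatives in BV2. On the seminal protein scale N18 was higher than BV2 by 0.77 (adjusted p = 0.000837). After quantile normalization the difference was 0.16 (95% interval -0.12 to 0.43, adjusted p = 0.302). Adgrb3 had 0.73, 1.13, 0.39 and 0.78 on the plates labelled AtT20, 0.58, 0.89, 0.74 and 0.81 in N18, and 0.53, 0.42, 0.36 and 0.36 in BV2. The plates labelled AtT20 were higher than BV2 by 1.30 (adjusted p = 4.59e-07), with 1 probe at 1.61 and the others at 0.17 and -0.22. Its N18 mean of 0.76 stood just above the threshold and passed in none of the 7 alternative ways of calling that were tried.

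The CELSR receptors, seven-pass cadherins that orient cells and guide axons, and the ADGRG group gave the other differences of N18. Celsr3 had 1.97, 1.99, 2.12 and 2.09 in N18, 0.47, 0.23, 0.19 and 0.25 in BV2, and 0.13, 0.04, 0.13 and 0.13 on the plates labelled AtT20. Celsr2 had 1.65, 1.37, 1.45 and 1.39 in N18, -0.11, 0.03, -0.20 and -0.07 in BV2, and 0.78, 0.43, 0.08 and 0.14 on the plates labelled AtT20. On this scale the N18 plates of both genes lay above all plates of the other lines, whereas Celsr1 was below the threshold in every line (means 0.17 to 0.34). After quantile normalization, Celsr2 on the plates labelled AtT20 (mean 11.11) overlapped with N18 (mean 10.93). Celsr3 was higher in N18 than in BV2 by 1.07 (95% interval 0.90 to 1.25, adjusted p = 6.3e-08, at least 1.7-fold) and Celsr2 by 0.98 (95% interval 0.83 to 1.13, adjusted p = 3.59e-08, at least 1.3-fold). Adgrg2, first known from the epididymis, had 2.37, 2.67, 2.35 and 2.66 in N18, -0.18, -0.17, -0.09 and 0.15 in BV2, and -0.05, -0.23, -0.12 and 0.01 on the plates labelled AtT20. It was higher in N18 than in BV2 by 1.76 (95% interval 1.57 to 1.95, adjusted p = 7.85e-10, at least 2.2-fold) and was lower on the plates labelled AtT20 than in N18 by 1.65 (adjusted p = 1.29e-07, with N18 at least 1.3-fold higher). Its 3 probes lay at 2.67, 1.63 and 2.92 in N18 and none exceeded 0.08 in the other lines. Adgrg1, Adgrg3, Adgrg5, Adgrg6 and Adgrg7, which include the myelination receptors Adgrg1 and Adgrg6, were below the threshold in every line, with means from -0.43 to 0.43, as were Adgrf1, Adgrf2 and Adgrf3 (means -0.18 to 0.37).

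Adgra2, which takes part in the growth of brain vessels, had 0.85, 1.11, 1.00 and 1.39 in N18, 0.21 to 0.33 in BV2 and 0.02 to 0.43 on the plates labelled AtT20, and was higher in N18 than in BV2 by 0.42 (adjusted p = 0.000729, at least 1.1-fold). In N18, 1 probe was at 1.68 and the others at 0.57 and 0.71, under the threshold of 0.74. Adgra2 passed there in 2 of the 7 alternative ways of calling. Adgrv1, the very large receptor of hair cell stereocilia, had 0.75, 0.71, 0.15 and 0.45 on the plates labelled AtT20, -0.17 to 0.12 in BV2 and -0.17 to 0.03 in N18. Plate 3 of those labelled AtT20 lay close to the other lines, and its level there was the lowest of the 4. The differences were 1.41 against BV2 (adjusted p = 2.9e-06) and 1.47 against N18 (adjusted p = 1.5e-06), with no fold given because the lower bound was under 1.

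**Figure D2:**
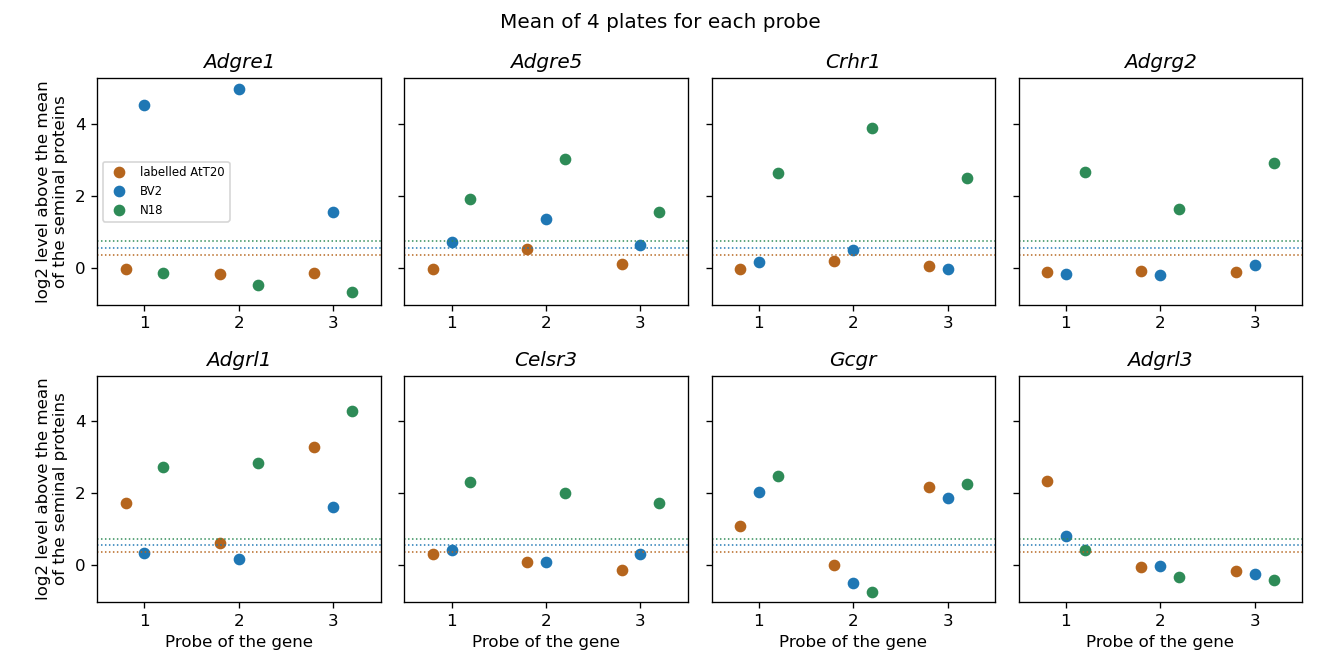
Level of each of the 3 probes of 8 members (mean of 4 plates, log2 units above the mean of the seminal proteins) in the 3 lines, with dotted lines at the thresholds. All probes of Adgre1 are highest in BV2 and all probes of Crhr1, Adgrg2 and Celsr3 are highest in N18, while Adgrl3 rests on probe 1 and probe 2 of Gcgr lies low in every line.

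The 4 members called higher in N18 than in BV2 by at least 1 on the log2 scale are Crhr1, Adgrg2, Adgrl1 and Celsr3, and their promoters are shown because they hold the largest differences in that direction. The sequences are the 250 bases before the start of each gene in RefSeq (GRCm38.p6), read 5′ to 3′, and capitals mark matches on either strand to the motifs named after them.
Crhr1, chr11:104132531-104132780, plus strand: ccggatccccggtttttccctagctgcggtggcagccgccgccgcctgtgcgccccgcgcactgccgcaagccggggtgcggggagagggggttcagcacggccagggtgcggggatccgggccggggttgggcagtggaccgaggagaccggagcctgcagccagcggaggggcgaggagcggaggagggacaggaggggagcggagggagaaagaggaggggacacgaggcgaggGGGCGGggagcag
Adgrg2, chrX:160390440-160390689, plus strand: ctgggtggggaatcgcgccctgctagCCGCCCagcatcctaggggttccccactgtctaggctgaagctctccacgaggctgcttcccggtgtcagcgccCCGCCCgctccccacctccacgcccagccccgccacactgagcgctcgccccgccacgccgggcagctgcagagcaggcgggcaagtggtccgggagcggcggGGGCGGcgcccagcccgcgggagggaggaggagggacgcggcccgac
Adgrl1, chr8:83899848-83900097, plus strand: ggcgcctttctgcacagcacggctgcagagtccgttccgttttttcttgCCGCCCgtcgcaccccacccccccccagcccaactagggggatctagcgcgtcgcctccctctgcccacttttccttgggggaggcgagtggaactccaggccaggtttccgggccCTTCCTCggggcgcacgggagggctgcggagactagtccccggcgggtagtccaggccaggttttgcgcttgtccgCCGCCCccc
Celsr3, chr9:108825795-108826044, plus strand: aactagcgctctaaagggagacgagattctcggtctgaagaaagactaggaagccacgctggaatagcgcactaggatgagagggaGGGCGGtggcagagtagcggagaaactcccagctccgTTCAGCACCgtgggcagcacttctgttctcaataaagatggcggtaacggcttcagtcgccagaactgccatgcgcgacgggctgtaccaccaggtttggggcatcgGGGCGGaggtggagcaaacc
Capitals stand for the GC box GGGCGG, the PU.1 core GAGGAAG or the left part of the REST site TTCAGCACC. Of the 37 members, 28 had a promoter in the table, with 34 promoters of 300 bases among 32851 in all. The GC box was found in 23 of the 34, against 35.7% of all promoters, and the median GC content was 62.0% against 52.7%. The core of the cAMP response element, TGACG, was found in 9 (20.8% of all), the core GAGGAAG in 9 (13.6%), the E-box CATCTG in 5 (17.2%), TAATTA in 2 (5.29%) and the E-box CACGTG in 0 (7.15%). The left part of the REST site, TTCAGCACC, which belongs to the element of a repressor of neuronal genes, was found in 0.371% of all promoters and in 1 of the members' promoters, that of Celsr3. Several promoters of a gene are counted separately, and a match is a description of the letters only.

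In the comparison of N18 with BV2, 12 of the 37 members were called higher in N18 and 8 lower after quantile normalization (32.4% and 21.6%), against 25.9% and 35.8% of all genes and targets. The median difference of the members was -0.05, beside -0.06 over all. The higher members were Crhr1, Adgrl1, Adgrg2, Celsr3, Celsr2, Adgrb1, Adcyap1r1, Adgre5, Adgra2, Glp1r, Adgrg6 and Pth1r, of which Adgrg6 (0.18) and Pth1r (0.16) were below the threshold in both lines. The lower members were Adgre1, Vipr1, Adgrl3, Adgrg5, Calcrl, Glp2r, Pth2r and Adgrl4, and apart from Adgre1 their differences ran from -0.47 to -0.14. Adgrl3, Adgrg5, Pth2r and Adgrl4 were below the threshold in both lines. When a call was kept only where it held in the same direction without normalization, relative to the seminal proteins and after quantile normalization, 11 members stayed higher and 2 lower (29.7% and 5.41%), against 24.3% and 10.3% of all. Those lost were Adgrg6 among the higher members, and all of the lower except Adgre1 and Adgrl3, the latter a difference of -0.35 between lines that were both below the threshold. The scaling matters for the direction of calls over the whole array, since 42.0%, 73.6% and 76.3% of all calls were higher in N18 with quantile normalization, the seminal protein scale and no normalization. The split of the members was 12 higher and 8 lower, 16 and 4, and 12 and 2 in the same order. Crhr1, Adcyap1r1, Adgra2, Adgrb1, Adgre1, Adgre5, Adgrg2, Adgrl1, Celsr2 and Celsr3 were called in the same direction under all 18 alternatives that were run, a minimum size of difference not among them.

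**Figure D3:**
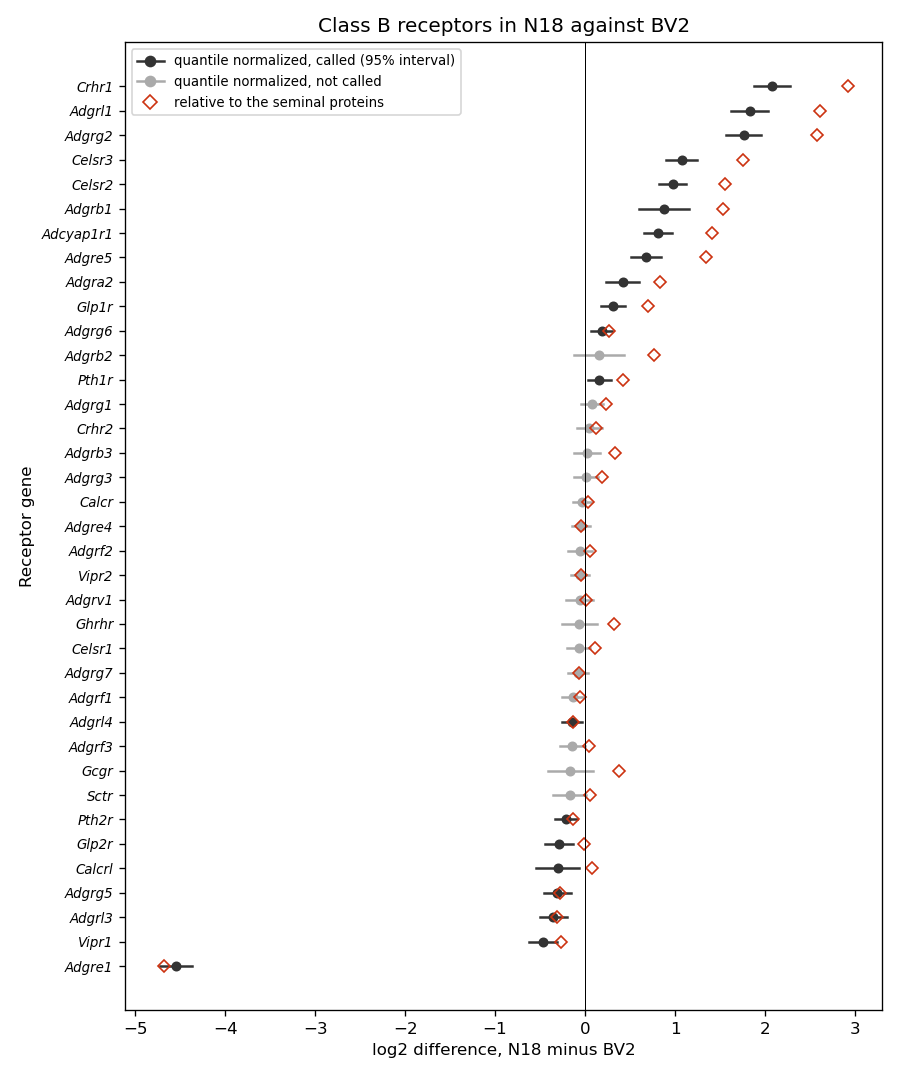
Difference between N18 and BV2 for each of the 37 members (horizontal axis, log2 units, positive where N18 is higher). Circles with 95% intervals are values after quantile normalization, dark where the adjusted p was under 0.05, and open diamonds are values relative to the seminal proteins; Adgre1 lies at -4.55, Crhr1 at 2.08 and Adgrl1 at 1.83, and the sign of Calcrl differs between the scales.

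For the plates labelled AtT20 the direction of many differences depended on the scaling, so members called on all 3 scales are named. After quantile normalization, 21 members were called higher on these plates than in BV2 and 2 lower (56.8% and 5.41%), against 43.8% and 25% of all. Relative to the seminal proteins 9 were higher and 11 lower, and without normalization 35 and 1. Over all genes and targets, 63.7%, 25.4% and 86.7% of the calls were higher on the plates labelled AtT20 in the same order, and the median of all differences moved from 0.23 to -0.28 and 1.08. On all 3 scales, 9 members were higher and 1 lower (24.3% and 2.70%), against 16.2% and 11.4% of all. The higher members were Adgrl1, Adgrl3, Adgrv1, Adgrb3, Celsr2, Adgre4, Crhr2, Adgrf2 and Adgrg6, and the lower was Adgre1. Of the higher members Celsr2, Adgre4, Crhr2, Adgrf2 and Adgrg6 were below the threshold in both lines.

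Against N18, 18 members were called higher on the plates labelled AtT20 and 6 lower after quantile normalization (48.6% and 16.2%), against 46.6% and 26.7% of all. The split was 8 higher and 21 lower relative to the seminal proteins and 27 and 4 without normalization, and over all features 63.6%, 21.3% and 76.2% of the calls were higher, with medians of 0.25, -0.54 and 0.85. On all 3 scales, 8 members were higher and 4 lower (21.6% and 10.8%), against 15.9% and 18.2% of all. Adgrl3, Adgrv1, Adgre1, Adgre4, Crhr2, Pth2r, Adgrg7 and Adgrl4 were higher, and all of these except Adgrl3 and Adgrv1 were below the threshold in both lines. Crhr1, Adgrg2, Celsr3 and Adgre5 were lower, by 1.70, 1.65, 0.70 and 0.60. For Adgrl1 the sign turned, from 0.61 after quantile normalization (adjusted p = 0.00716) to -1.19 on the seminal protein scale (adjusted p = 0.00615). The comparisons with BV2 and with N18 share the plates labelled AtT20. On these plates the neuronal genes Nefl, Hand2 and Tubb3 had levels of 4.46, 2.03 and 2.02, and 6 of 10 neuroblast markers were above the threshold with plate means over the list from 0.71 to 1.40. Their part in the levels of Adgrl3, Adgrb3 and Adgrv1 was not tested.

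**Figure D4:**
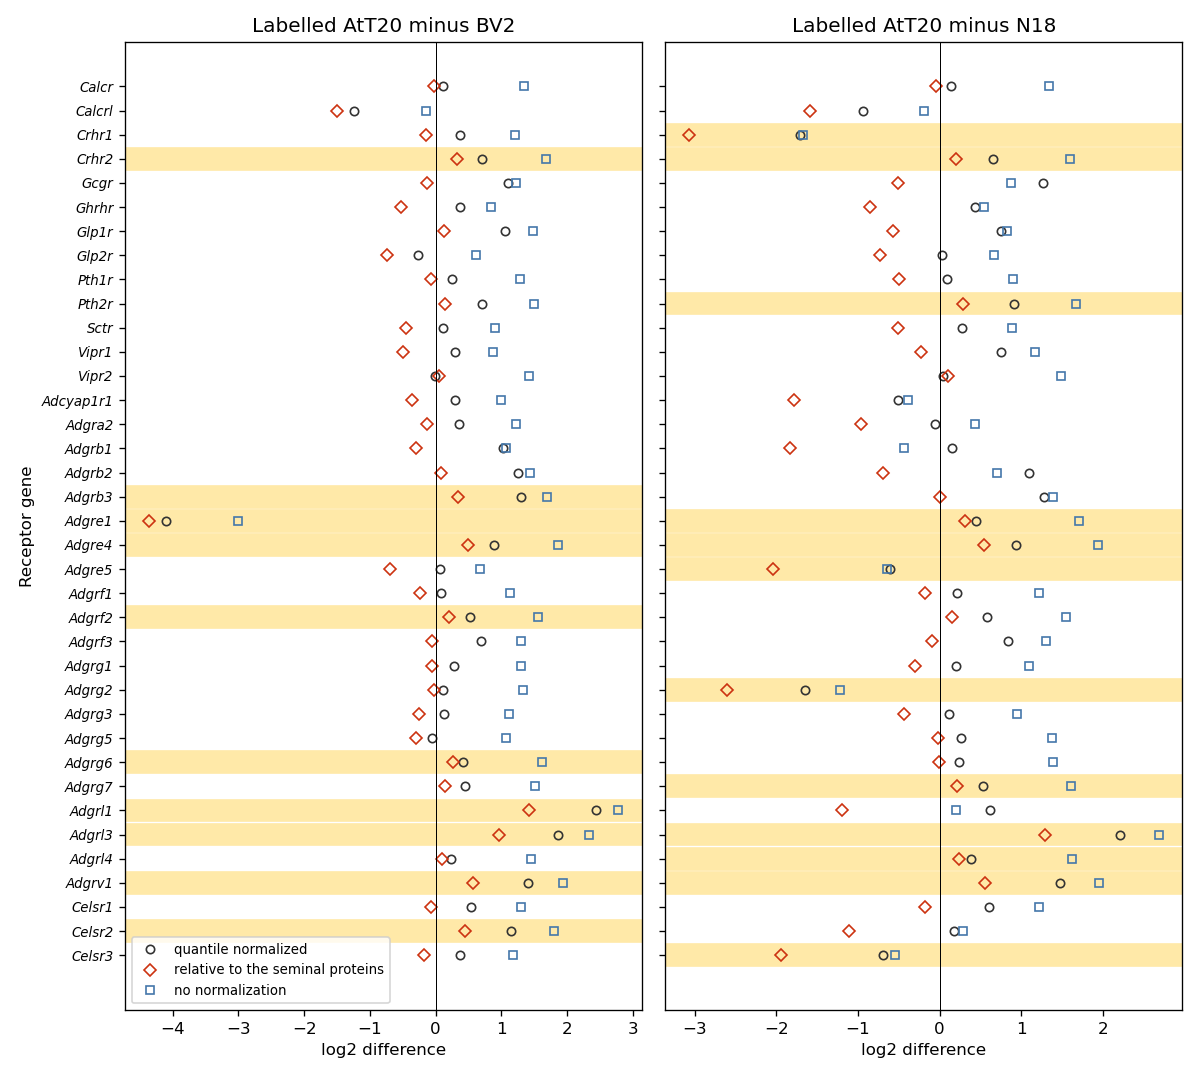
Difference between the plates labelled AtT20 and BV2 (left) or N18 (right) for each member (horizontal axis, log2 units, positive where the plates labelled AtT20 are higher) on 3 scales. Shaded bands mark the 10 and 12 members called in the same direction on all scales. Within a panel the squares (no normalization) lie to the right of the diamonds (relative to the seminal proteins) by the same amount for every member. That gap is fixed by the scaling, which takes the same value off all genes of an array.

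The peptide ligands of the secretin receptors were measured on the same arrays. Of 17 ligands, 6 were above the threshold in N18, 5 in BV2 and 7 on the plates labelled AtT20 (35.3%, 29.4% and 41.2%, beside 55.4%, 53.3% and 35% of all features). Between N18 and BV2, 2 were called higher and 7 lower, where 25.9% and 35.8% of all features were, with a median difference of -0.05 against -0.06 over all. Vip, whose product acts on Vipr1 and Vipr2, was higher in N18 by 0.58 (adjusted p = 1.39e-05), at 1.69 ± 0.23 against 0.55 ± 0.16, and Adm2, an adrenomedullin-related peptide, by 0.73 (adjusted p = 5.64e-06), at 2.13 ± 0.12 against 0.72 ± 0.07. Pthlh, the parathyroid hormone-related peptide, was lower in N18 by 0.87 (adjusted p = 8.15e-07), at 0.37 ± 0.09 against 1.17 ± 0.16. Ghrh stood at 3.21 ± 0.32 in BV2 and 3.17 ± 0.17 in N18 on the seminal protein scale, and its difference of -0.70 after quantile normalization was -0.04 on that scale (adjusted p = 0.897). Crh, the ligand of Crhr1, was below the threshold in every line, at 0.04 ± 0.09 in N18. Ucn, another ligand of Crhr1 and Crhr2, was above it on the plates labelled AtT20 (0.73 ± 0.24) and not in BV2 (-0.03 ± 0.18) or N18 (-0.12 ± 0.11), and was higher there on all 3 scales, by 1.82 than BV2 (adjusted p = 1.27e-07) and by 2.01 than N18 (adjusted p = 4.68e-08). Adm, Ucn3 and Pth2 were also above the threshold in at least 1 line, with Ucn3 at 1.47 ± 0.28 and Pth2 at 0.90 ± 0.23 in N18, and Adm at 0.60 ± 0.30 on the plates labelled AtT20. All values with ± are mean ± SD over 4 plates.

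The accessory proteins were unlike each other. Ramp2, which turns the product of Calcrl into an adrenomedullin receptor, had 1.64 ± 0.07 in N18, 0.06 ± 0.08 in BV2 and -0.05 ± 0.05 on the plates labelled AtT20, and was higher in N18 than in BV2 by 0.98 (adjusted p = 2.26e-08, at least 1.4-fold). Ramp1, which turns it into a CGRP receptor, was above the threshold only on the plates labelled AtT20 (0.83 ± 0.35), where Calcrl was not, and was higher there than in BV2 by 1.61 on the log2 scale (adjusted p = 7.37e-07). Of its 3 probes, 1 was above the threshold on those plates. Ramp3 had 0.61 ± 0.20 in BV2 and 0.81 ± 0.10 in N18 and the difference did not pass the test (-0.13, 95% interval -0.31 to 0.05, adjusted p = 0.203). Crcp was above the threshold in all 3 lines, while Crhbp, the binding protein of corticotropin releasing factor, was not in any. Of these 5 genes, 1 was called higher in N18 than in BV2 and 1 (Ramp1) lower, where 25.9% and 35.8% of all features were. Ramp1 was below the threshold in both of these lines.

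Of 24 proteins known to bind adhesion receptors, 14 were above the threshold in N18 (58.3%), 8 in BV2 (33.3%) and 12 on the plates labelled AtT20 (50%), beside 55.4%, 53.3% and 35% of all features. Between N18 and BV2, 15 were called higher and 4 lower, where 25.9% and 35.8% of all features were, with a median difference of 0.33 against -0.06 over all. Of the teneurins, partners of the latrophilins, Tenm3 was higher in N18 by 1.54 (adjusted p = 7.18e-10) and Tenm4 by 1.67 (adjusted p = 3.81e-10), whereas Tenm1 was lower by 0.58 (adjusted p = 3.69e-06). Unc5a, Unc5b and Unc5c, netrin receptors that join latrophilin and FLRT complexes, were higher in N18 by 1.51, 2.65 and 2.19, with levels of 2.42 ± 0.10, 4.31 ± 0.20 and 3.25 ± 0.32 there. Flrt2 ran the other way, at 1.49 ± 0.23 in BV2, 0.40 ± 0.14 in N18 and 2.07 ± 0.88 for those labelled AtT20, with N18 lower than BV2 by 1.15 (adjusted p = 2.15e-08). C1ql1, a ligand of Adgrb3, was higher in N18 than in BV2 by 1.34 (adjusted p = 3.73e-08), and C1ql3 was above the threshold only on the plates labelled AtT20, at 1.18 ± 0.35. Col4a1, a collagen bound by Adgrg6, was higher in N18 by 1.88 (adjusted p = 3.97e-10). Tgm2, a partner of Adgrg1, stood at 3.02 ± 0.46 in BV2 and 2.63 ± 0.18 in N18, and its call as lower in N18 (-0.98) was lost relative to the seminal proteins (-0.39, adjusted p = 0.164). Cd55, the classical ligand of Adgre5, was below the threshold in every line (-0.38 to -0.11). Prnp, Dag1 and Thy1 were above it in all 3 lines.

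Planar cell polarity genes work beside the CELSR receptors at cell borders. Of 9 such genes, 6 were called higher in N18 than in BV2 and 1 lower, with a median difference of 0.87 against -0.06 over all features. Above the threshold were 8 in N18, 5 in BV2 and 6 on the plates labelled AtT20 (88.9%, 55.6% and 66.7%, beside 55.4%, 53.3% and 35% of all features). Vangl2 was higher in N18 by 1.24 (adjusted p = 1.82e-07), Fzd3 by 1.34 (adjusted p = 7.2e-09), Fzd6 by 0.87 (adjusted p = 1.56e-08), Ptk7 by 1.56 (adjusted p = 3.49e-09), Dvl1 by 0.59 (adjusted p = 9.56e-05) and Dvl3 by 1.48 (adjusted p = 5.74e-08). Vangl1 and Dvl2 did not pass, at -0.12 and -0.01. Prickle1 was called lower after quantile normalization (-0.23, adjusted p = 0.0337) and turned to 0.11 relative to the seminal proteins (adjusted p = 0.487). Over all features 25.9% were called higher in N18 and 35.8% lower. These lists were chosen with results of these data known and were not tested as sets.

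**Figure D5:**
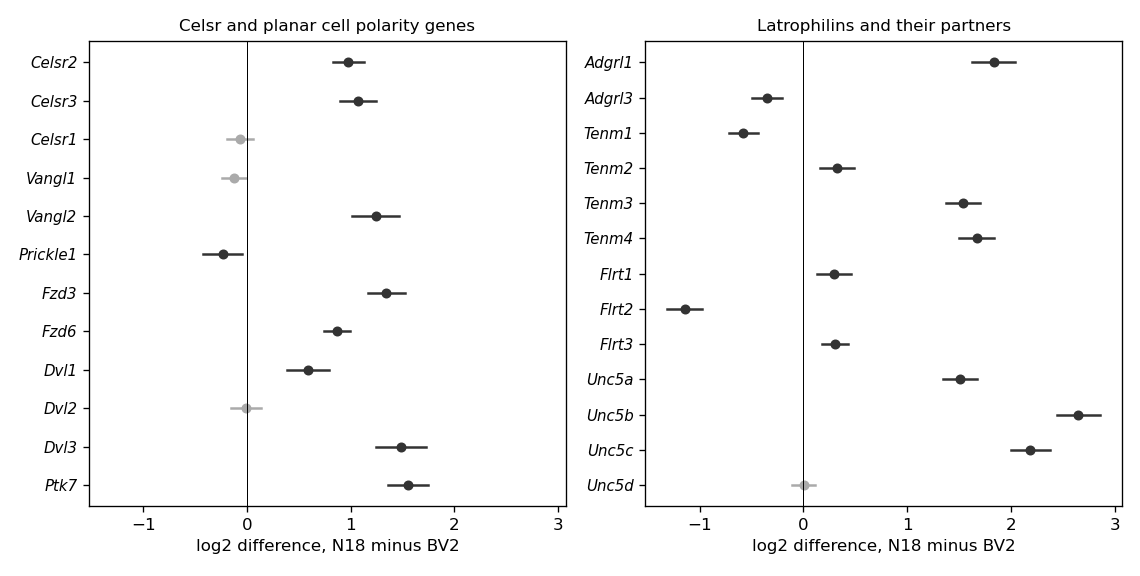
Difference between N18 and BV2 after quantile normalization (horizontal axis, log2 units, positive where N18 is higher; bars are 95% intervals) for the CELSR receptors with planar cell polarity genes (left) and the latrophilins with their partners (right). Dark points have an adjusted p under 0.05. On the left, Celsr3, Vangl2, Fzd3, Ptk7 and Dvl3 lie above 1 and Celsr2 lies just under 1, and on the right Unc5b reaches 2.65.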

How the data were processed

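The 12 arrays, 4 for each line, are of a NimbleGen design on mouse build MM8. The deposited values are log2 Cy3 signals of 72000 probes per array, transformed by the authors after extraction with NimbleScan, and no background subtraction or normalization is described. Precision is limited by the number of arrays, 4 for each line.

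The linear signals of a target's probes were averaged, and log2 was taken of the mean. Of 25631 targets, 17777 (69.4%) were named through a RefSeq gene table (GRCm38.p6), of which only names and promoters were used, which left 17274 genes and 7854 unnamed targets. Targets were named through their transcripts and members were matched by current symbols, with older symbols used only to find control genes. A member without a matched target may still lie among the unnamed targets. The members and lists were chosen with earlier results of these data known.

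Levels relative to the seminal proteins and the threshold of 2 SD follow the study's methods. Lines were compared pair by pair in R 4.3.3 with lmFit and trended eBayes of limma 3.58.1 on the 8 arrays of the pair, after quantile normalization of the 12 arrays. Adjusted p-values are limma's with Benjamini-Hochberg adjustment over 25128 genes and targets, called under 0.05, and 95% intervals are limma's. The 8 arrays were used because the spread within a line differed between lines. The requirement that a call hold on 3 scales was added after seeing the data. A fold is given where a line was below its threshold on all 4 plates, as the mean of the brighter line against, on each array, the higher of the threshold and the gene's own level, taking the smallest over the 3 scales and rounding down.

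Equal replicate numbers did not pair the plates. Deviations from line means correlated between -0.11 and 0.32 for equal numbers (median 0.01). For unequal numbers the correlations ran from -0.49 to 0.36 (median -0.02). Plate values are given for members above the threshold in a line that differ by at least 1 in a called pair, and for members the study names. From the other lists, genes above the threshold were named, and others are named for contrast after their values were seen. Alternatives were other averages of probes, normexp with offset 50, no normalization, the seminal protein scale, quantile normalization of the pair alone, all 12 arrays in the fit, array weights, only genes above the threshold, a replicate block, a difference of at least 1, leaving out each plate and, for the threshold, olfactory receptors as controls, 3 SD, all 4 plates and at least 2 probes. The fits were tested on simulated data. HEK293 cells and the qPCR values were not analysed here. Tables and figures used Python 3.11.15, numpy 2.4.6, pandas 2.3.3 and matplotlib 3.10.9. Not every marker gene's own level is reported here.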

Additional observations from a re-analysis of the deposited data

Results flagged for a closer look

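In 8 of the groups of 4 plates (37 members in 3 lines), 1 plate stood apart from the other 3 by more than the 95% critical value of Dixon's test, and chance gives about 1 in 20 groups. Plate 2 of BV2 was low for Gcgr, at 1.13 against 1.59 to 1.67 on the others, and for Adgrb2, at 1.70 against 1.88 to 1.91, with both genes still above the threshold there. Adgrf1 was high on plate 3 of BV2 (0.28, others 0.15 to 0.17) and on plate 3 of N18 (0.25, others 0.08 to 0.10), and Adgre4 was high on plate 3 of N18 (-0.36, others -0.52 to -0.50), all of them under the threshold. Among plates labelled AtT20, Pth2r was high on plate 4 (0.46, others 0.07 to 0.11), Adgra2 was high on plate 2 (0.43, others near 0.02 to 0.03), and Celsr3 was low on plate 2 (0.0440, others at 0.13).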

How the results depend on the processing

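The number of members above the threshold in BV2 was 11, and it was 7 with the median of probes, 5 with olfactory receptors as controls and 7 where at least 2 probes had to pass; in N18 it was 16 and fell to 10 with olfactory receptors as controls. Members called between N18 and BV2 numbered 20, against 13 with all 12 arrays in the fit, 5 at a difference of at least 1 and 13 on 3 scales. Between the plates labelled AtT20 and BV2 there were 23, against 36 without normalization, 12 among genes above the threshold, 11 at a difference of at least 1 and 10 on 3 scales. Against N18 there were 24, and 15, 7 and 12 in the last 3 of these settings. Fewer genes were tested where only genes above the threshold entered; for the other settings the cause was not tested.

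Leaving out single plates, the counts above the threshold ran from 8 to 10 on the plates labelled AtT20, 11 to 11 in BV2 and 15 to 16 in N18, and the counts called from 18 to 20 (N18 and BV2), 19 to 25 (labelled AtT20 and BV2) and 24 to 27 (labelled AtT20 and N18). The calls of Calcrl, Pth1r and Adgrl4 between N18 and BV2, and that of Adgrg6 between the plates labelled AtT20 and BV2, were lost without any of several plates (highest adjusted p 0.103, 0.111, 0.0771 and 0.0880). Ghrhr passed on the plates labelled AtT20 in 3 of 4 sets of 3 plates, Celsr2 in 2 of 4 and, in N18, Adgrb3 in 1 of 4. With a replicate block the counts were 20, 23 and 24, though equal numbers did not pair the plates. Of the 20 members called between N18 and BV2, the sign turned for Calcrl, to 0.0456 without normalization and 0.0754 relative to the seminal proteins. Relative to the seminal proteins it also turned for 8 of 23 members called between the plates labelled AtT20 and BV2, with Ghrhr called the opposite way, and for 8 of 24 against N18, with Gcgr, Ghrhr, Glp1r, Vipr1, Adgrb2 and Adgrl1 called the opposite way. The minimum difference aside, 10 of the 20 were called the same way in all 18 settings, and Adgrl3 in the 17 in which it was tested. Of those called on 3 scales for the plates labelled AtT20, 8 of 10 (BV2) and 12 of 12 (N18) were called the same way in every setting in which they were tested, which for 4 and 6 of them were all 18. The settings without normalization and relative to the seminal proteins were part of that selection, so their outcome was fixed for these members. On the plates labelled AtT20, Ghrhr and Glp1r lay near the threshold and passed in 2 and 4 of the 7 alternative ways of calling. Whether low signal over background limits such calls was not tested.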
